A study of Mus musculus with 2 samples.

Results

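Type IIa myonuclei are the nuclei of muscle fibres whose main myosin heavy chain is Myh2. They were picked from 1 single-nucleus RNA sequencing library of PTRF KO quadriceps and 1 of WT quadriceps, from C57BL/6N mice aged 3 months. Ptrf is an older name of Cavin1, a coat protein of the small membrane pits called caveolae. A nucleus was counted as IIa when it had at least 200 genes and at least 3 unique molecules (UMIs) over Myh1, Myh2, Myh4 and Myh7, with Myh2 making up at least 80% of them. It also had at most 1 UMI over the nuclear receptors Nr4a1, Nr4a2 and Nr4a3, and 0 UMIs over Dcn, Pdgfra, Fbn1, Mrc1, F13a1, Pparg, Acvr1c, Flt1 and Notch3, which mark other cells of muscle. This rule kept 338 of 18046 barcodes, 102 of 7766 in the KO library and 236 of 10280 in the WT library. The sources used here do not say how many mice went into a library, their sex, whether the deletion is in all tissues, or whether animals were pooled.

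Fast fibres of mouse limb muscle carry Myh2 (type IIa), Myh1 (type IIx) or Myh4 (type IIb), and slow fibres carry Myh7. The fast isoform genes lie side by side in 1 cluster, and a fibre nucleus mostly transcribes a single isoform at a time. Type IIa fibres are fast but rich in mitochondria and resist fatigue, while IIb fibres rely on glycolysis. Of the other IIa markers, Myoz2 encodes calsarcin-1, a calcineurin-binding protein of the Z-disc, and Ankrd2 encodes an ankyrin repeat protein that responds to stretch and moves between the sarcomere and the nucleus. Cavin1 and caveolin-3 hold the caveolae of the fibre membrane, which flatten when the membrane is stretched.

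The bases before the start sites of the 3 fast myosin genes and of the 2 other markers are shown because the isoform genes define the nuclei compared here. Each line has 250 bases of the RefSeq promoter on GRCm38.p6, 5′ to 3′ on the strand of the gene, and capitals mark a match to the MEF2 consensus, the site of a family of muscle transcription factors. Myh2 lies at chr11:67170777-67171026 and Myh1 at chr11:67199852-67200101, both on the plus strand. Myh4 lies at chr11:67237562-67237811 on the plus strand, Myoz2 at chr3:123034988-123035237 on the minus strand and Ankrd2 at chr19:42035777-42036026 on the plus strand.
Myh2: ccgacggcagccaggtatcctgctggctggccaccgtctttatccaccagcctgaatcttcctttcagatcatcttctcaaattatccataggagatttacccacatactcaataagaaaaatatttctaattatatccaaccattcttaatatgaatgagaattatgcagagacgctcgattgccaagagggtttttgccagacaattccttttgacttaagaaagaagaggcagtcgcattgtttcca
Myh1: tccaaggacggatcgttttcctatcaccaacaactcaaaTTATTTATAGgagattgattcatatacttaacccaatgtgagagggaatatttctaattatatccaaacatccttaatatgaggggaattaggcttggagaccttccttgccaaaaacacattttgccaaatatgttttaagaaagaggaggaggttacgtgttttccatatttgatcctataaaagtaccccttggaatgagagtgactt
Myh4: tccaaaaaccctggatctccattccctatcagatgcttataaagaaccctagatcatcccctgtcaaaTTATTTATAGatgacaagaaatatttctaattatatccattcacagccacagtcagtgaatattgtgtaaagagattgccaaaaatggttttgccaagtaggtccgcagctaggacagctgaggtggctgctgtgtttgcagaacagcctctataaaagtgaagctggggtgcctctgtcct
Myoz2: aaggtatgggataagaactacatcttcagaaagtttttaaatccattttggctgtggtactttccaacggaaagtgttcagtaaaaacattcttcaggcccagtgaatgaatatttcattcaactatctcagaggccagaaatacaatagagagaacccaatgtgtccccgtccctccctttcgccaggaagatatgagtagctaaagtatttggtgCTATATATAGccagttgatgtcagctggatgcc
Ankrd2: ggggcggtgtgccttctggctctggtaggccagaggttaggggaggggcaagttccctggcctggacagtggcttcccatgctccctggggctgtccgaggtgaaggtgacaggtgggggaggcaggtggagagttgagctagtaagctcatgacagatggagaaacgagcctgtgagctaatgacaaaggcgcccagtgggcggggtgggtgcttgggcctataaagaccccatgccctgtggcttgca
The consensus was searched on both strands. It had 1 match each in Myh1, Myh4 and Myoz2 and no match in Myh2 or Ankrd2, and 3.01% of the 27025 genes with a promoter in the same table had a match in a window of this length. The windows of Myh2, Myh1 and Myh4 also share the run aatatttctaattatatcca, 20 bases that 3 of the 27025 genes hold on either strand. These matches describe letters only.

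With 1 library per genotype there was no test between genotypes. Nuclei of a library are not replicates, so the intervals below are exact 95% intervals for counting error only, and a gene past 2-fold is named for its size. A level is a gene's UMI sum over the nuclei of a class per 1000000 UMIs of that class (CPM), and a log2 ratio is taken after adding 0.5 UMI to each sum. The IIa nuclei held 196432 UMIs in the KO library, with a median of 1752.5 UMIs and 893 genes per nucleus, against 348784 UMIs, a median of 1212.5 UMIs and 640.5 genes in the WT library. The median of all barcodes was 1562 UMIs in the KO library and 703 in the WT library. Rn18s, a ribosomal RNA, took 2.73% of the UMIs of KO IIa nuclei and 5.47% of those of WT IIa nuclei. The deepest nucleus held 3.69% of the KO IIa sum and 2.12% of the WT IIa sum. Cavin1 had 0 UMIs in IIa nuclei of either library, with upper 95% limits of 18.8 CPM in KO and 10.6 CPM in WT. The deletion could therefore not be checked within IIa nuclei. Over all barcodes Cavin1 had 2 UMIs in the KO library and 75 in the WT library. Barcode sequences found in both libraries numbered 24, and 1 of them was a IIa nucleus in at least 1 of the libraries.

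The rule fixed what the members look like in the myosins, which is given as description. In KO IIa nuclei Myh2 was at 3487 CPM, Myh1 at 316 CPM and Myh4 at 50.9 CPM. In WT IIa nuclei Myh2 was at 5086 CPM, Myh1 at 204 CPM and Myh4 at 172 CPM. The slow isoform Myh7 had 0 UMIs in both. Myh2 was the sole isoform seen in 54 of 102 KO and 140 of 236 WT members, and 20 KO and 42 WT members had exactly 3 myosin UMIs. Just inside the share limit, 43 KO and 68 WT members had 80% to 90% Myh2. Just outside it, 31 KO and 72 WT nuclei with 70% to 80% Myh2 met every other condition, and 9 KO and 56 WT nuclei had 2 Myh2 UMIs and no other myosin. The Nr4a limit removed 32 KO and 8 WT nuclei that had met the myosin conditions, and the genes of other cells removed a further 13 KO and 23 WT nuclei. Among those kept, 41 KO and 28 WT members carried 1 Nr4a UMI.

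Both of the other IIa markers followed the label, although Ankrd2 was much weaker in the knockout. Myoz2 was at 448 CPM (interval 359 to 552) in KO IIa nuclei, against 122 CPM in KO IIx and 1.33 CPM in KO IIb nuclei. In WT it was at 539 CPM (465 to 622) in IIa, against 35.8 CPM in IIx and 5.29 CPM in IIb nuclei. Ankrd2 was at 163 CPM (111 to 230) in KO IIa nuclei, against 54.1 CPM in KO IIx and 1.50 CPM in KO IIb nuclei. In WT its levels were 654 CPM (572 to 744) in IIa, 167 CPM in IIx and 10.0 CPM in IIb nuclei. In each library the order was IIa, then IIx, then IIb for both genes, and the IIa and IIx intervals did not overlap. Myoz2 lies at chr3:123006206-123035015 on the minus strand and Ankrd2 at chr19:42036000-42045110 on the plus strand (GENCODE M21, GRCm38).

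Marker lists for other cells were close to empty in the members. In KO IIa nuclei the summed markers of macrophages, adipocytes, endothelium, lymphatics and tenocytes had 0 UMIs, and those of fibro-adipogenic cells had 2 UMIs. The same lists had between 1 and 12 UMIs each in WT IIa nuclei. These sums are in part set by the rule, which fixed Mrc1, F13a1, Pparg, Acvr1c, Flt1, Dcn, Pdgfra, Fbn1 and, of the mural list, Notch3 at 0. Markers of mural, satellite, lymphocyte and Schwann cells had between 1 and 5 UMIs each in KO and between 4 and 7 in WT members. Genes of all myonuclei summed to 69902 CPM in KO and 77931 CPM in WT members. IIb markers (Myh4 among them) summed to 22 UMIs in 17 of 102 KO members and 115 UMIs in 88 of 236 WT members. Slow-fibre markers had 13 UMIs in KO and 5 UMIs in WT members. Markers of the neuromuscular junction had 44 UMIs in 24 KO members and 66 UMIs in 41 WT members. Markers of the myotendinous junction had 22 UMIs, all in 2 KO members, against 9 UMIs in 8 WT members. Their part in the results below was not tested.

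**Figure D1:**
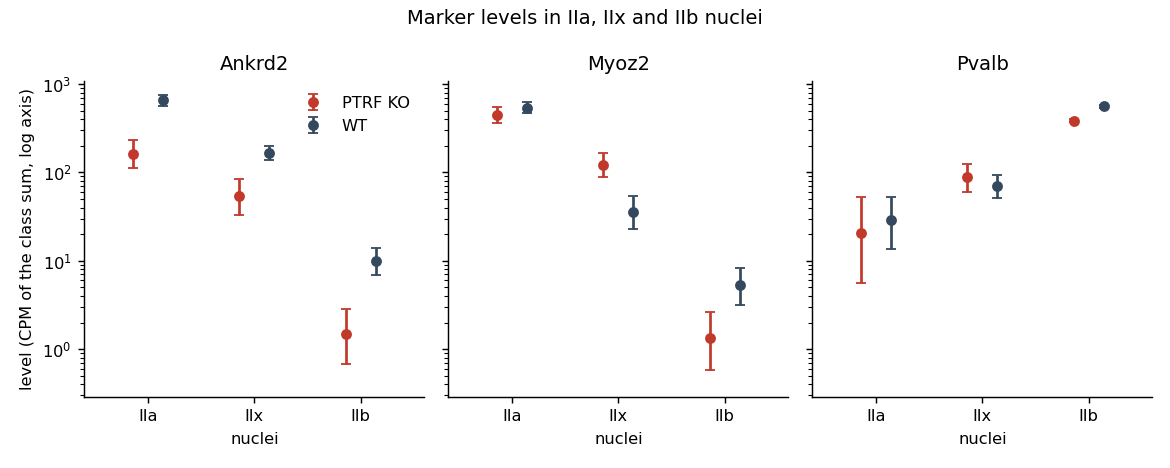
Levels of Ankrd2, Myoz2 and the IIb marker Pvalb in IIa, IIx and IIb nuclei (x axis), as CPM of the class sum on a log axis; points are PTRF KO (left) and WT (right), and bars are exact 95% Poisson intervals. Ankrd2 and Myoz2 stand highest in IIa nuclei and Pvalb, the calcium buffer parvalbumin, in IIb nuclei, where it reached 385 CPM in KO and 560 CPM in WT against 20.4 and 28.7 CPM in IIa nuclei.

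IIa nuclei were a smaller share of the typed nuclei in the KO library, but not in every subset of its nuclei. Typed nuclei are those that met every condition except the Myh2 share. IIa nuclei made up 3.37% (2.75% to 4.07%) of 3029 typed KO nuclei and 5.29% (4.65% to 5.99%) of 4458 typed WT nuclei. The difference was -1.93 percentage points, and a wider exclusion of other cells gave -0.955 (-2.14 to 0.297). IIx nuclei made up 5.84% in KO and 9.96% in WT, nuclei of mixed myosins 7.40% in KO and 18.0% in WT, and IIb nuclei 83.4% in KO and 66.8% in WT. The share rests on the same myosin UMIs as the rule, and KO nuclei had both more UMIs and a lower Myh2 level, whose part in the share was not tested. Fewer IIa nuclei and fewer IIa nuclei that reach the rule cannot be told apart here.

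The KO library held nuclei with signals of either sex, and the share differed between them. Of its IIa members, 38 had a Y-linked UMI and no Xist, the RNA of the inactive X chromosome, 27 had Xist and no Y-linked UMI, 1 had both and 36 had neither. Of the WT members, 90 had a Y-linked UMI, 146 had neither and 0 had Xist. Among typed nuclei with only the Y-linked signal, IIa nuclei were 2.46% (38 of 1544) in KO and 6.12% (90 of 1471) in WT. Among the 325 KO nuclei with only Xist they were 8.31% (5.55% to 11.9%). The KO minus WT difference was thus -3.66 points among Y-marked nuclei, and 2.19 points (an interval of -0.884 to 5.93) when Xist-marked KO nuclei were set against Y-marked WT nuclei, a comparison added after the data were seen. Of KO nuclei with 1 of the signals, the Xist-marked were 41.5% of IIa, 35.1% of IIx and 13.6% of IIb nuclei. With 1 library each, genotype, animal and library cannot be told apart, and the share depended on the sex-linked signal of the nuclei used. Ratios within Y-marked nuclei are given below for each gene ranked in the KO over WT comparison and for some list genes.

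**Figure D2:**
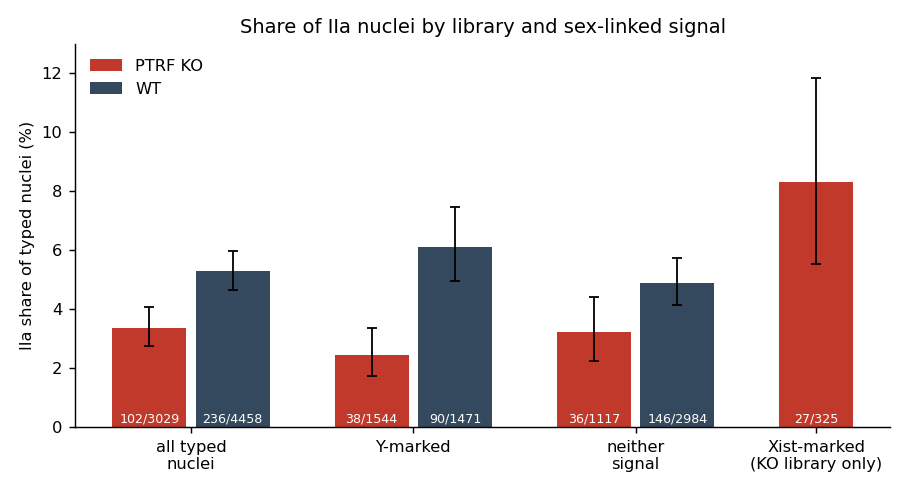
Share of IIa nuclei among typed nuclei (y axis, %) for all nuclei and for nuclei sorted by sex-linked signal, PTRF KO left of WT; bars are shares, error bars exact 95% Clopper-Pearson intervals, and the figures inside give members over typed nuclei. The Y-marked KO share, 2.46%, lies below the WT share of 6.12%, and the Xist-marked KO share, 8.31%, lies above it.

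The genes ranked highest in IIa over IIb nuclei, which the ranking requires to be 2-fold apart in the same direction in both libraries, included Myoz2, Myom3 and Actn2. Of 6263 genes with at least 40 UMIs over both classes in each library, 356 (5.68%) were at least 2-fold higher in IIa in both libraries and 365 (5.83%) at least 2-fold lower. In the KO library alone 14.4% were higher and 12.9% lower, and in the WT library alone 10.3% were higher and 12.3% lower. The genes were ranked by the library with the weaker bound, and the genes of the member rule were left out. After Myoz2 and Ankrd2 came Myom3, which encodes a myomesin of the M-band. Myom3 was at 382 CPM in KO IIa against 3.17 CPM in KO IIb nuclei (log2 6.88), and at 416 CPM in WT IIa against 8.23 CPM in WT IIb nuclei (log2 5.64). Actn2, an α-actinin of the Z-disc, was at 3294 CPM in KO IIa against 153 CPM in KO IIb, and at 4438 CPM in WT IIa against 282 CPM in WT IIb. The LIM-domain genes Fhl1 (log2 5.12 in KO and 4.57 in WT) and Pdlim1 (5.85 and 4.79) and the actin nucleator Lmod2 (4.17 and 5.39) were also among the 12 highest. So were Myh10, a non-muscle myosin (4.87 in KO and 4.69 in WT), and Atp1b1, the β1 subunit of the sodium pump (4.58 and 3.93). Apol6 was in this ranking too, at 4.67 in KO and 4.03 in WT.

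A pair of nuclear receptors of energy metabolism were in the same top 12. Esrrb, an oestrogen-related receptor, was at 224 CPM in KO IIa against 2.67 CPM in KO IIb, and at 281 CPM in WT IIa against 13.8 CPM in WT IIb. Ppara, the receptor that switches on fatty acid oxidation genes, was at 672 CPM in KO IIa against 23.7 CPM in KO IIb, and at 943 CPM in WT IIa against 68.2 CPM in WT IIb. Esrrg, another member of the oestrogen-related family and fixed in the transcription factor list, had log2 ratios of 4.71 in KO and 3.16 in WT. Over all genes with at least 20 UMIs, 6.66% were 2-fold higher and 5.62% 2-fold lower in both libraries. Of the 31 measured genes of the transcription factor list 4 were higher and 3 lower. The lower ones were Maf (-3.87 in KO and -2.80 in WT), Eya4 (-2.37 and -2.13), a transcriptional coactivator of the fast programme, and Sox6 (-1.18 and -1.35), a repressor of slow genes.

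The 12 lowest genes in IIa included fast-fibre contraction and glycolysis genes. Mybpc2, the fast myosin-binding protein C, was at 10.2 CPM in KO IIa against 938 CPM in KO IIb (log2 -6.20, interval -9.57 to -4.67, from 2 UMIs in IIa), and at 91.7 CPM in WT IIa against 1141 CPM in WT IIb (-3.61). Actn3, the α-actinin of fast glycolytic fibres, was at 30.5 CPM in KO IIa against 443 CPM in KO IIb, and at 37.3 CPM in WT IIa against 550 CPM in WT IIb. Pfkfb3, an enzyme that makes the activator of phosphofructokinase, had log2 ratios of -4.60 in KO and -3.90 in WT. Mylk4, of the myosin light chain kinase family, had -4.11 in KO and -3.57 in WT. Prkag3, the γ3 subunit of the AMP-activated kinase, had -3.62 in KO and -3.36 in WT. The phospholipase Plcd4, the adhesion gene Cadm1, Adamtsl1, Tmem233 and Pvalb had ratios from -5.64 to -3.54 in KO and from -4.22 to -3.14 in WT. Smoc2, a secreted matrix protein, had 0 UMIs in KO IIa nuclei, at least 8.86-fold lower than in KO IIb with a floor of 3 UMIs over the class, and log2 -4.53 (-7.90 to -2.99) in WT, where it had 2 UMIs. Myhas, an RNA from the myosin cluster itself, had -4.02 (-6.52 to -2.69, from 3 UMIs in IIa) in KO and -3.60 in WT. It overlaps Myh1 on the opposite strand, and the sources used here do not say whether counting used strand. Myh1, a gene of the member rule, ran the other way, at 316 CPM in KO IIa against 12.2 CPM in KO IIb and at 204 CPM in WT IIa against 40.9 CPM in WT IIb, where Myhas was at 15.3 against 289 CPM in KO and at 28.7 against 365 CPM in WT.

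**Figure D3:**
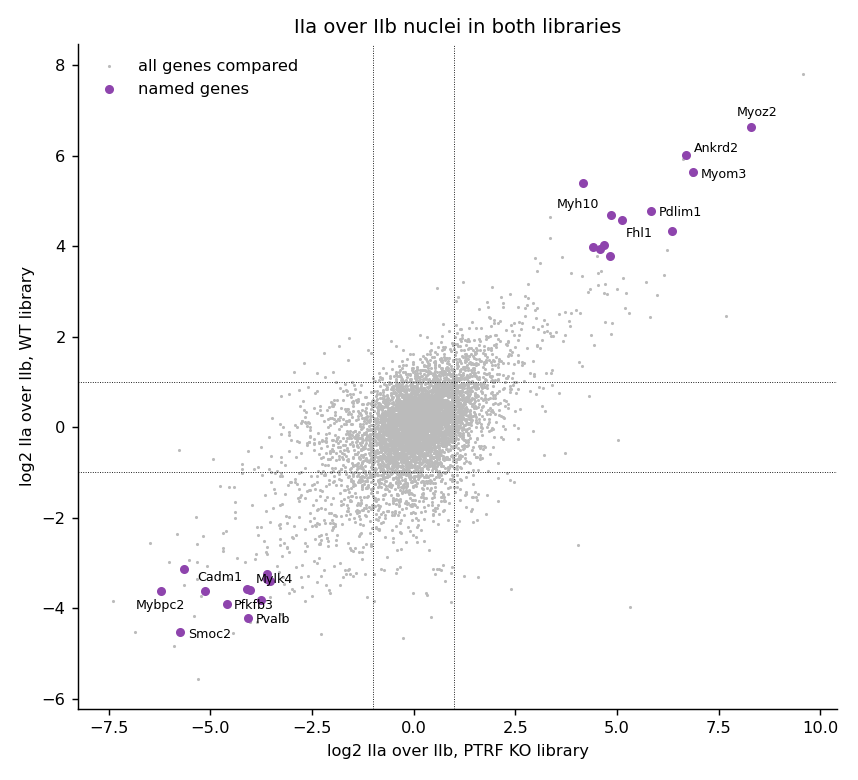
Log2 ratio of IIa over IIb nuclei for each gene, in the PTRF KO library (x axis) and in the WT library (y axis); grey points are all genes compared (Myh2, fixed by the rule, is the one at the top right), purple points the 24 named genes, some of them labelled, and dotted lines mark 2-fold. Smoc2, with 0 UMIs in KO IIa nuclei, is drawn with the added 0.5 UMI. As the ranking requires, the named genes lie in the upper right and lower left corners, Myoz2 at 8.31 in KO and 6.63 in WT and Mybpc2 at -6.20 in KO and -3.61 in WT.

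Gene lists showed the metabolic side of the same contrast. The lists are counted over genes with at least 20 UMIs, where 6.66% of 8259 genes were 2-fold higher and 5.62% 2-fold lower in IIa in both libraries, and the median log2 ratio was 0.14 in KO and 0.08 in WT. Of 22 genes of fatty acid use, 15 were higher and 1 was lower, with medians of 1.48 in KO and 1.56 in WT. Cd36, the fatty acid transporter, was at 1583 CPM in KO IIa against 108 CPM in KO IIb, and at 1287 CPM in WT IIa against 122 CPM in WT IIb. Lpl, the lipase that frees fatty acids from circulating fat, had log2 ratios of 4.54 in KO and 3.13 in WT, and Fabp3, the muscle fatty acid binding protein, 4.45 and 2.90.

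Genes of respiration and the citrate cycle had smaller medians. Of 31 measured, 9 were higher in both libraries and 0 lower, with medians of 1.11 in KO and 1.05 in WT. Idh2, the mitochondrial NADP-linked isocitrate dehydrogenase, stood apart with 4.30 in KO and 2.99 in WT. Of 23 glycolysis and glycogen genes, 2 were higher and 14 lower, with medians of -1.29 in KO and -1.32 in WT. Those higher were Gbe1, the glycogen branching enzyme (2.31 in KO and 1.90 in WT), and Gys1, the muscle glycogen synthase (1.47 and 1.41). The breakdown genes Pygm (-1.40 and -1.54) and Phka1 (-2.40 and -1.60) were lower. These 4 were named after their values were seen. Of 15 fast sarcomere genes 9 were lower and 0 higher. Of 23 scaffold and stretch genes 7 were higher and 0 lower, Csrp3, a Z-disc LIM protein, reaching 6.59 in KO and 5.80 in WT.

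Fewer genes set IIa apart from IIx nuclei, at a lower depth, since KO IIx nuclei held 351345 UMIs against 5992884 in KO IIb nuclei. Of 2122 genes, 21 (0.99%) were 2-fold higher and 13 (0.613%) 2-fold lower in IIa than in IIx nuclei in both libraries. In the KO library alone 2.31% were higher and 2.4% lower, and in the WT library alone 1.89% were higher and 1.65% lower. The 6 highest were Ablim1, Myoz2, Myom3, Pdlim1, Nckap5 and Ldlrad3. Ablim1, an actin-binding LIM protein, was at 367 CPM in KO IIa against 82.5 CPM in KO IIx, and at 138 CPM in WT IIa against 23.4 CPM in WT IIx. Myoz2 had log2 ratios of 1.86 in KO and 3.88 in WT, Myom3 1.89 and 3.28, Pdlim1 2.12 and 1.91, Nckap5 1.66 and 2.27, and Ldlrad3 1.33 and 2.02. The 6 lowest were Mylk4 (-2.35 in KO and -1.95 in WT), Psd3 (-2.06 and -1.88), Mybpc2 (-3.80 and -1.53), Maf (-2.27 and -1.46), Tbc1d1 (-1.06 and -1.99) and Plcl1 (-1.12 and -1.02). Maf is one of the large Maf factors that promote Myh4 in mouse muscle, and Tbc1d1 is a Rab regulator of glucose transporter traffic. When nuclei were thinned to 500 UMIs before the rule was applied, which left 36 KO and 119 WT members, the Myoz2 ratio of the library nearer to no difference was -0.22 (-3.74 to 1.95).

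Among the genes furthest apart between KO and WT IIa nuclei, Scn2a, Prune2 and Runx1 were higher in KO, and Sox2ot, Ankrd2 and Hrc were lower. Of 2081 genes with at least 40 UMIs over both libraries, 132 (6.34%) were at least 2-fold higher in KO and 60 (2.88%) at least 2-fold lower. The median log2 ratio of all these genes was 0.14, against which every ratio below should be read. After scaling by the median of ratios the split was 92 higher and 85 lower. With nuclei thinned to 500 UMIs before the rule, 11 of 241 genes were higher and 17 lower. Among the 12 genes ranked highest 6 share bases with a second gene of the same strand and 2 with one of the other strand alone, and among the 12 ranked lowest 2 and 3 do, so some of their UMIs are of uncertain origin.

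Scn2a, which encodes a sodium channel known mainly from neurons, ranked next to Ano4 at the top of the higher side and was spread over many nuclei. It was at 575 CPM in KO IIa nuclei, 113 UMIs in 45 of 102 nuclei, against 22.9 CPM in WT IIa nuclei, 8 UMIs in 7 of 236 nuclei (log2 4.57, interval 3.62 to 5.89). In IIx nuclei it was at 176 CPM in KO against 7.79 CPM in WT. In IIb nuclei it was at 3.67 CPM in KO and 5.29 CPM in WT, with an interval of the ratio that spans 0. Y-marked KO IIa nuclei were at 598 CPM and Xist-marked ones at 599 CPM, against 22.2 CPM in Y-marked WT IIa nuclei. The difference was thus of like size in KO nuclei with either signal. The gene lies at chr2:65620771-65767447 on the plus strand and overlaps no other annotated gene.

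A further pair of genes on the higher side are known from denervated muscle. Runx1, a transcription factor that denervated fibres switch on, was at 193 CPM in KO IIa against 17.2 CPM in WT IIa nuclei (log2 3.39). Kcnn3, a calcium-activated potassium channel that appears in denervated muscle, was at 178 CPM in KO against 28.7 CPM in WT (2.59), with 1.70 in IIb and 2.12 in IIx nuclei. In Y-marked nuclei Runx1 had 4.21 and Kcnn3 2.27. Ncam1, an adhesion molecule of the same kind and a member of the denervation list, was at 137 CPM in KO against 11.5 CPM in WT (3.44). Of the 15 genes of that list 3 had at least 20 UMIs, and 2 of them, Ncam1 and Runx1, were 2-fold higher, beside 8.42% of 3444 genes of that depth 2-fold higher and 5.05% 2-fold lower. With 3 genes measured, the list's median of 3.39 is the ratio of Runx1 itself and does not describe the list as a whole. The other measured member, Musk, the kinase of the neuromuscular junction, had 0.23. The acetylcholine receptor subunit Chrnd had 2 UMIs in KO and 1 in WT, too few to read. In IIx nuclei Runx1 and Ncam1 had ratios of 3.86 and 2.80, and in IIb nuclei 1.49 and -0.39.

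The remaining high-ranked genes had varied roles. Prune2 was at 1319 CPM in KO against 126 CPM in WT (log2 3.37) and Pcdh7, a protocadherin, at 260 CPM in KO against 14.3 CPM in WT (4.06). Lama2, the laminin α2 chain of the fibre's basement membrane, was at 590.5 CPM in KO against 60.2 CPM in WT (3.27), but 39 of its 116 KO UMIs came from 1 nucleus, and the ratio without the top nucleus was 2.99. Its level was 1695 CPM in Xist-marked and 250 CPM in Y-marked KO IIa nuclei, against 55.4 CPM in Y-marked WT IIa nuclei, a ratio of 2.14 (1.05 to 3.41) within Y-marked nuclei. Glis3, a zinc finger factor, had 3.57, Asap2, an Arf regulator, 2.58, and Cyfip2, a subunit of the WAVE actin complex, 2.68. In IIx nuclei the ratios of Prune2, Pcdh7, Lama2, Glis3, Asap2 and Cyfip2 were 3.23, 3.27, 1.43, 4.04, 4.04 and 5.26, all past 2-fold in the same direction. In IIb nuclei they were 2.08, 2.64, 2.49, 2.09, -0.21 and 1.36, with an interval that spans 0 for Asap2. Il15, a cytokine made by muscle, was at 295 CPM in KO against 68.8 CPM in WT (2.08), with 1.37 in IIx and -0.24 in IIb nuclei. In Y-marked nuclei the ratios of Prune2, Glis3, Asap2, Cyfip2 and Il15 were 3.50, 4.01, 2.37, 2.56 and 1.58, and Pcdh7 was at 326 CPM in KO against 16.6 CPM in WT. The interval there lay on the same side for 11 of the 12 highest, Ano4 having 0 UMIs.

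Both Ano4 and Nav3 ran the other way in IIb nuclei. Ano4, of the anoctamin family, had 47 UMIs in KO IIa nuclei and 0 in WT IIa nuclei, at least 27.8-fold higher with a floor of 3 UMIs over the class. But 44 of the 47 UMIs were in 1 nucleus, only 3 KO nuclei had any, and 45 of the 47 were in Xist-marked nuclei. In KO IIx nuclei it had 0 UMIs, at least 4.01-fold lower than in WT IIx nuclei. Nav3, a neuron navigator protein that binds microtubules, was at 280 CPM in KO IIa against 22.9 CPM in WT IIa nuclei (log2 3.54), with 15 KO nuclei carrying it, and had -1.80 in IIb and 1.26 in IIx nuclei. Its level was 620 CPM in Xist-marked and 97.9 CPM in Y-marked KO IIa nuclei, and its ratio within Y-marked IIa nuclei was 2.05 (0.30 to 4.30). In KO IIx nuclei Nav3 was at 337 CPM in Xist-marked and 18.1 CPM (3 UMIs) in Y-marked nuclei. Y-marked WT IIx nuclei were at 28.6 CPM (10 UMIs), so Nav3 was not higher in KO among Y-marked IIx nuclei.

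**Figure D4:**
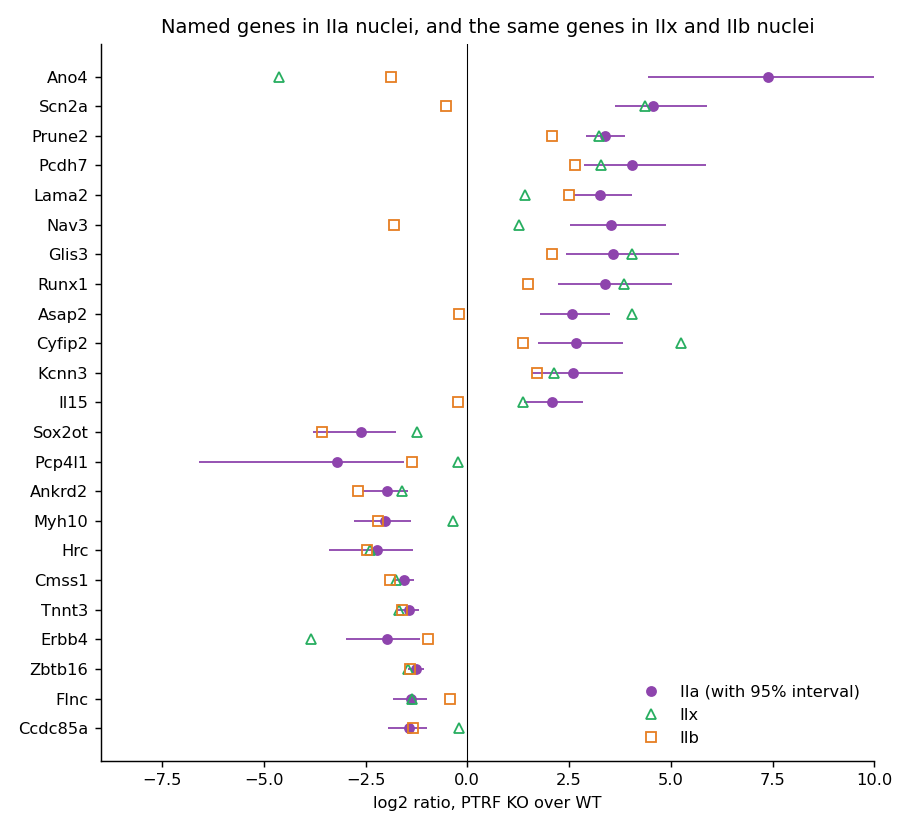
Log2 ratio of PTRF KO over WT (x axis) for the 12 highest and 11 of the 12 lowest ranked genes of IIa nuclei; filled circles with lines are IIa ratios with exact 95% counting intervals (that of Ano4 has no upper limit, and its point is set by the 0.5 UMI added to a WT sum of 0), open triangles IIx and open squares IIb nuclei. Scn2a stands at 4.57 in IIa and 4.38 in IIx but -0.54 in IIb nuclei, while Hrc lies between -2.47 and -2.21 in all 3.

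Some of the genes ranked lowest had KO sums that were nearly empty. Sox2ot, a long noncoding RNA around Sox2, was at 50.9 CPM in KO against 327 CPM in WT (-2.62), with -3.57 in IIb and -1.25 in IIx nuclei. Pcp4l1 had 2 UMIs in KO and 40 in WT (-3.19, interval -6.59 to -1.55), 15 of the 40 in 1 nucleus, with -1.37 in IIb and -0.23 in IIx nuclei. The KO sums of both genes were 10 UMIs or fewer. In Y-marked nuclei Sox2ot had 2 UMIs in KO and 65 in WT, a ratio of -3.74 (-7.12 to -2.14), and Pcp4l1 had 0 in KO and 23 in WT. Erbb4, a neuregulin receptor, was at 66.2 CPM in KO against 267 CPM in WT (-1.96), with 11 of its 13 KO UMIs in 1 nucleus, and had -0.97 in IIb and -3.84 in IIx nuclei. Without the top nucleus of each library its ratio in IIa nuclei was -4.21. Of its 13 KO UMIs 12 were in Xist-marked nuclei, and Y-marked nuclei held 0 in KO and 69 in WT.

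Ankrd2, the stretch-responsive marker, was lower in knockout IIa nuclei, as were 3 other genes of the scaffold and stretch list. Its log2 ratio of KO over WT was -1.99 (-2.59 to -1.47), with a UMI in 20 of 102 KO and 97 of 236 WT members. Because WT nuclei were shallower, each nucleus was thinned to 500 UMIs, for which 0 KO and 13 WT members were too shallow. Ankrd2 was then seen in 6.86% (2.80% to 13.6%) of KO and 23.3% (17.9% to 29.4%) of WT members, against 0.0396% of KO and 0.739% of WT IIb nuclei. The share was lower in KO after thinning. Myoz2, treated the same way, was seen in 15.7% of KO and 16.1% of WT members (44.1% and 30.9% before thinning), against 0.0792% of KO and 0.333% of WT IIb nuclei. In Y-marked nuclei Ankrd2 was at 185 CPM in KO against 582 CPM in WT. It was also lower in KO among IIx (-1.59) and IIb nuclei (-2.68).

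Of the 24 measured genes of the scaffold and stretch list, Myh2 of the rule included, 20 had a ratio below 0 and 4 above, with a median of -0.42. Over all 3444 genes of that depth 1368 were below 0 and the median was 0.15. Past 2-fold, beside 5.05% of all genes lower and 8.42% higher, were Ankrd2, Ankrd23 (-1.98), Flnc (-1.38) and Xirp2 (-1.03) on the lower side and Myom2 (1.34) on the higher side. Ankrd23 belongs to the same ankyrin repeat family as Ankrd2. Flnc, filamin C, was at 311 CPM in KO against 814 CPM in WT, and Xirp2, a Xin repeat protein that gathers at strained Z-discs, at 983 CPM in KO against 2004 CPM in WT. Among the genes ranked by spread between nuclei, Xirp2 was among the 8 with the widest. Thinned to 500 UMIs, its variance was 2.98 times its mean in KO and 2.41 times in WT, while the median gene had 1.07 in KO and 1.08 in WT. In IIb nuclei Ankrd23 had a ratio of -1.21, Flnc -0.42, Xirp2 0.25 and Myom2 0.35, and in IIx nuclei -2.30, -1.37, -1.06 and 0.40 in the same order. Flnc and Xirp2 were thus 2-fold lower in IIa and IIx but not in IIb nuclei, a difference that was not tested. Titin (Ttn), with the most UMIs of the list, had -0.20 in IIa nuclei. Among Y-marked nuclei the list's median was -0.04 over 22 genes, although Ankrd2 (-1.62), Flnc (-1.76) and Xirp2 (-1.07) were past 2-fold there.

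Calcium handling genes lay on both sides. Of 27 measured, 3 were 2-fold higher and 3 lower, beside 8.42% and 5.05% of all genes, with a median of 0.21. Hrc, a calcium-binding protein of the store in the sarcoplasmic reticulum, was at 50.9 CPM in KO against 247 CPM in WT (log2 -2.21), and at a like ratio in IIb (-2.47) and IIx nuclei (-2.38). In Y-marked IIa nuclei its ratio was -1.59 (-3.22 to -0.44). Stac3, an adaptor of the voltage sensor, had -1.25 in IIa, -0.01 in IIb and 0.12 in IIx nuclei, and Jsrp1, a junctional reticulum protein, -1.20, -0.51 and -0.04 in the same order. Atp2a2, the calcium pump of slow and cardiac muscle, was at 183 CPM in KO against 40.1 CPM in WT (2.16), with 1.39 in IIb and 0.13 in IIx nuclei. Sypl2, the triad protein mitsugumin 29, had 1.23 in IIa, 0.11 in IIb and 1.16 in IIx nuclei, and Cacng1, a subunit of the voltage sensor, 1.16, -0.05 and 1.49. Triadin (Trdn), which had the most UMIs of the list, was at 5636 CPM in KO and 5169 CPM in WT. The fast pump Atp2a1 was at 977 CPM in KO and 1127 CPM in WT, with an interval that spans 0.

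Fuel genes set IIa apart from IIb nuclei, but few of them passed 2-fold between the genotypes. Over all genes with at least 20 UMIs, 8.42% were 2-fold higher and 5.05% 2-fold lower in KO IIa nuclei. Of 17 fatty acid genes 1 was 2-fold higher, the lipid droplet coat gene Plin2 (1.97 in IIa, 0.80 in IIb and 0.48 in IIx nuclei), and 3 were lower. The lower ones were the carnitine carrier Slc25a20 (-1.62, -1.66 and -1.55), the thiolase Acaa2 (-1.65, interval -4.23 to -0.07, from 3 KO UMIs) and the pyruvate dehydrogenase kinase Pdk4 (-1.04, -1.03 and -2.27). The list's median was -0.25, against 0.15 over all genes, with 7 genes above 0 and 10 below. It was also below 0 in IIb (-0.65), IIx (-0.32) and Y-marked IIa nuclei (-0.37, over 13 genes). Cd36, its gene with the most UMIs, had 0.30 (0.09 to 0.51). Of 20 respiration and citrate cycle genes 0 passed 2-fold either way, with a median of 0.00 (-0.14 under the median-of-ratios scaling). Their ratios ran from -0.72 for the ATP synthase subunit Atp5b to 0.56 for the complex III subunit Uqcrc1, and Ogdh, a citrate cycle enzyme, was at 621 CPM in KO and 877 CPM in WT. Among 16 glycolysis and glycogen genes the pyruvate kinase Pkm (1.07, with 0.14 in IIb and 0.07 in IIx nuclei) alone passed 2-fold, and the median was -0.04. Gbe1 was at 1278 CPM in KO and 1227 CPM in WT, and the phosphorylase kinase subunit Phkg1 was lowest of the list at -0.48.

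Contractile genes differed from WT at single members. Tnnt3, the fast troponin T, was at 743 CPM in KO against 2024 CPM in WT (-1.44), and was lower by a like amount in IIb (-1.60), IIx (-1.67) and Y-marked IIa nuclei (-1.58). Mybpc2, with 2 KO UMIs, had -2.87 (-6.28 to -1.20) in IIa nuclei, against -0.28 in IIb and -0.60 in IIx nuclei. The other 11 measured genes of the fast list lay within 2-fold, up to the fast light chain Mylpf at 0.83, and the median of all 13 was -0.10. Of the 3 slow sarcomere genes measured, Atp2a2 alone was 2-fold higher, while Mybpc1, the slow myosin-binding protein C, was at 3798 CPM in KO and 4100 CPM in WT (-0.11). Their median was 0.47. For all genes with at least 20 UMIs, the shares past 2-fold were 8.42% higher and 5.05% lower.

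Among regulators, Hdac9 and Ppargc1b were the members of the transcription factor list past 2-fold, both higher, with a median of 0.22 over 28 genes. Of all genes with at least 20 UMIs, 8.42% were 2-fold higher and 5.05% 2-fold lower, with a median of 0.15. Hdac9, a deacetylase that binds MEF2, was at 774 CPM in KO against 235 CPM in WT (1.71, with 0.93 in IIb and 1.15 in IIx nuclei). Ppargc1b, a coactivator of mitochondrial genes, was at 585 CPM in KO against 229 CPM in WT (1.35, with 0.12 in IIb and 0.68 in IIx nuclei). Esrrg was at 3472 CPM in KO IIa and 3971 CPM in WT IIa nuclei (-0.19), against -1.74 in IIb nuclei. Nfatc1, the calcineurin-driven factor of slow and IIa programmes, was lowest of the list at -0.80, with -0.48 in IIb and -0.03 in IIx nuclei.

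Fbxo32, Smad3, Tbc1d1 and Utrn, from different lists, were picked out after their values were seen because they were 2-fold higher in KO IIa nuclei and lower in KO IIb nuclei, with intervals beyond 0 in both. Over all genes with at least 20 UMIs, 32 of the 290 that were 2-fold higher in KO IIa nuclei did the same. Fbxo32, the ubiquitin ligase atrogin-1, was at 1145 CPM in KO against 562 CPM in WT IIa nuclei (1.03), and at 745 CPM in KO against 1102 CPM in WT IIb nuclei (-0.57). In Y-marked IIa nuclei its ratio was 0.37, with an interval that spans 0, while Smad3 had 1.82, Tbc1d1 1.09 and Utrn 2.03 there. Smad3, an effector of TGF-β, had 1.19 in IIa and -0.52 in IIb nuclei, and Tbc1d1 had 1.40 in IIa and -0.31 in IIb nuclei. Utrn, the dystrophin relative utrophin, was at 158 CPM in KO against 40.1 CPM in WT IIa nuclei (1.95), and had -0.90 in IIb nuclei. In IIx nuclei the 4 genes had ratios of 0.84, 0.41, 0.48 and 1.61, on the side of IIa. Foxo1, a factor that drives atrophy genes, was lower in all 3 classes, at -1.09 in IIa, -1.29 in IIb and -1.74 in IIx nuclei.

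The lists these genes come from had medians close to that of all genes. Among all genes with at least 20 UMIs, 8.42% were 2-fold higher and 5.05% 2-fold lower. Of 13 atrophy genes 2 were higher and 1 lower, with a median of 0.10 (-0.05 under the median-of-ratios scaling). Of 14 dystrophin complex and laminin genes 2 were higher, Lama2 and Utrn, and 0 lower, with a median of 0.35. Dystrophin itself (Dmd), with the most UMIs of that list, was at 22924 CPM in KO and 14651 CPM in WT (0.65), and the sarcoglycan Sgcb, lowest of the list, was at 25.5 CPM in KO and 54.5 CPM in WT, just inside 2-fold. Of 17 insulin and mTOR genes Tbc1d1 alone passed 2-fold, with a median of -0.06. Its relative Tbc1d4, with the most UMIs, had -0.20, and Grb14, an adaptor that damps the insulin receptor, was lowest at -0.60. Of 12 ion channel and pump genes Kcnn3 alone passed 2-fold, with a median of 0.18, and Kcnma1, a large-conductance potassium channel with the most UMIs, had -0.73, with 0.10 in IIb nuclei.

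Of 14 secreted factors 4 were measured, and 3 of these were 2-fold higher, beside 8.42% of all genes, with a median of 1.53. Besides Il15 these were Tgfb2 (1.88 in IIa, 0.72 in IIb and 1.14 in IIx nuclei) and Angpt1, an endothelial growth factor, at 1196 CPM in KO against 528 CPM in WT (1.18, -0.04 and 1.34). Vegfa, the vascular growth factor, was at 779 CPM in KO and 969 CPM in WT (-0.31). In Y-marked nuclei the median of the 4 was 1.34.

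Of 12 caveola genes 3 were measured, all below 0, with a median of -0.80. With 3 genes measured the median is the ratio of 1 gene and does not describe the list as a whole. The median of these genes was -0.31 in Y-marked IIa, -0.19 in IIb and -0.23 in IIx nuclei. The shares of all genes with at least 20 UMIs were 5.05% 2-fold lower and 8.42% 2-fold higher. Ehd4, an ATPase that works at membranes, was 2-fold lower at 45.8 CPM in KO against 123 CPM in WT (-1.37), with -0.19 in IIb and -0.82 in IIx nuclei, and Pacsin3, a membrane-bending protein of muscle, had -0.29. Cav3, the muscle caveolin, had 8 UMIs in KO and 4 in WT, and Cavin4, the muscle cavin, 5 in KO and 14 in WT, too few to tell a difference. Of 8 clock genes the repressor Bhlhe40 (1.22, interval -0.13 to 2.67) was 2-fold higher, with a median of 0.04 (-0.11 under the median-of-ratios scaling), and Rora, with the most UMIs, had -0.04 and Arntl, a core activator, -0.58. The interferon list had 0 of 22 genes measured. The early response and heat shock list had 2 of 18, the small heat shock proteins Cryab (0.93) and Hspb7 (0.06), both with intervals that span 0.

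The other genes ranked among the 12 lowest were Myh10, Cmss1, Zbtb16 and Ccdc85a. Myh10, itself a gene of the IIa pattern, was at 107 CPM in KO against 442 CPM in WT (-2.02), with -2.20 in IIb and -0.35 in IIx nuclei. Cmss1 was at 759 CPM in KO against 2254 CPM in WT (-1.57), with -1.89 in IIb and -1.74 in IIx nuclei. Zbtb16, a zinc finger repressor, was at 1344 CPM in KO against 3200 CPM in WT (-1.25), with -1.41 in IIb and -1.45 in IIx nuclei, and was another gene of wide spread between nuclei, at 1.73 times its mean in KO and 1.69 times in WT. Ccdc85a was at 224 CPM in KO against 614 CPM in WT (-1.44), with -1.34 in IIb nuclei and an interval that spans 0 in IIx nuclei. In Y-marked IIa nuclei Myh10 had -2.52, Cmss1 -1.26 and Zbtb16 -1.31, while Ccdc85a was inside 2-fold at -0.91 (-1.60 to -0.31).

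Of the genes that differed most between the libraries over all myonuclei in earlier work on these data, most had few UMIs in IIa nuclei. Their intervals there mostly span 0, which does not show that a difference is absent. The difference between the classes was not tested. These 10 higher and 11 lower genes were chosen with that result known, and 2 of the 21 had at least 40 UMIs in IIa nuclei. Irs1, the insulin receptor substrate, was at 346 CPM in KO IIa against 292 CPM in WT IIa nuclei, a log2 ratio of 0.25 (-0.22 to 0.70). In IIb nuclei it was at 1361 CPM in KO against 206 CPM in WT (2.72), and in IIx nuclei at 461 CPM in KO against 171 CPM in WT (1.43). Sorcs1, a sorting receptor, was at 10.2 CPM (2 UMIs) in KO IIa against 20.1 CPM (7 UMIs) in WT IIa nuclei. Its levels were 713 CPM in KO IIb against 111 CPM in WT IIb nuclei. Iigp1, an interferon-induced GTPase, had 0 UMIs in KO IIa nuclei, which allows up to 15.3 CPM, against 61.9 CPM in KO IIb nuclei. Igf1, the growth factor, was at 10.2 CPM (2 UMIs) in KO IIa and 105 CPM in KO IIb nuclei. Sgms2, a sphingomyelin synthase, was at 5.09 CPM (1 UMI) in KO IIa and 137 CPM in KO IIb nuclei. The IIa interval of KO over WT ran from -3.34 to 3.37 for Igf1 and from -4.46 with no upper limit for Sgms2. These intervals include the IIb ratios of 3.22 and 4.31, so for both genes the IIa counts are too few to show a smaller difference. The same held for most of the 21 genes, among them all 11 lower ones. The IIa interval left out the IIb ratio for Irs1, Sorcs1 and Pcdh7 alone, and Pcdh7 had the higher ratio in IIa.

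The sex-linked signal bears on this contrast because IIb nuclei of the KO library were mostly Y-marked. Within Y-marked KO nuclei Irs1 was at 359 CPM in IIa and 1403 CPM in IIb, and within Xist-marked KO nuclei at 289 CPM in IIa and 638 CPM in IIb. Sorcs1 was at 10.9 CPM (1 UMI) in Y-marked IIa and 796 CPM in Y-marked IIb nuclei, and at 137 CPM in Xist-marked IIb nuclei. Iigp1 had 0 UMIs in Xist-marked IIb nuclei, with an upper limit of 9.37 CPM, and was at 77.0 CPM in Y-marked IIb nuclei. In Y-marked IIa nuclei Iigp1 also had 0 UMIs, with an upper limit of 40.1 CPM. The gap between IIa and IIb nuclei was therefore present within Y-marked nuclei for all 3 genes.

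Other genes of those sets did differ in IIa nuclei. Pcdh7, Pde10a (1.94), a phosphodiesterase, and Cpeb2 (3.03), which binds the tails of mRNAs, had intervals above 0 in IIa, 3 of the 10 higher genes against 10 of 10 in IIb and 7 of 10 in IIx nuclei. Of the 11 lower genes, Cntn4, Dpp10, Lrp1b and Arrdc2 had intervals below 0 in IIa, against 11 of 11 in IIb and 6 of 11 in IIx nuclei. Arrdc2, an arrestin domain gene, had 0 UMIs in KO and 19 in WT IIa nuclei, at least 3.57-fold lower. The 11 lower genes had 5 UMIs in KO and 106 in WT IIa nuclei together. Depth does limit the count of intervals, since IIa nuclei held far fewer UMIs than IIb nuclei.

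**Figure D5:**
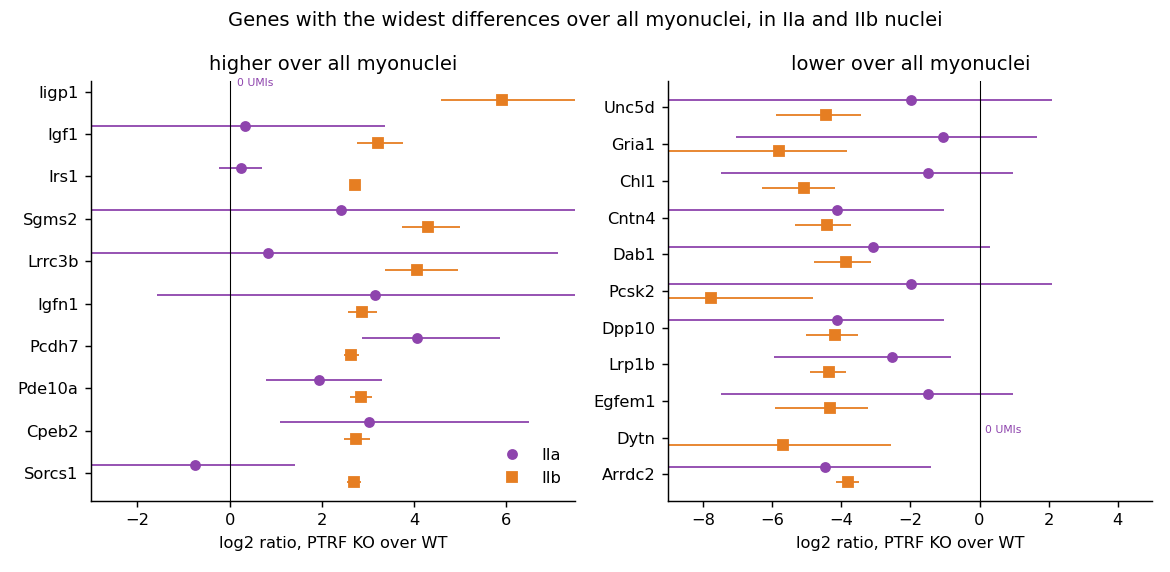
Log2 ratio of PTRF KO over WT (x axis) in IIa nuclei (purple circles, upper) and IIb nuclei (orange squares, lower) for genes that were highest (left) or lowest (right) over all myonuclei in earlier work; lines are exact 95% counting intervals, cut at the panel edge. Irs1 lies at 0.25 in IIa and 2.72 in IIb nuclei, and Sorcs1 at -0.76 in IIa and 2.69 in IIb nuclei.

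Gene length moved with the genotype ratio in IIa nuclei. In 5 groups of about equal size, from the shortest genes to the longest, the median log2 ratio of KO over WT was -0.01, 0.06, 0.16, 0.23 and 0.27. Of the shortest genes 50 were 2-fold higher and 64 lower, of the fourth group 61 and 14, and of the longest 77 and 33. The medians in IIb nuclei, in the same order, were -0.03, 0.07, 0.22, 0.25 and 0.15. The part of length in the results above was not tested. Between classes, the shortest genes had a median IIa over IIb ratio of 0.48 in KO and 0.45 in WT, and the longest 0.12 in KO and 0.04 in WT. Nuclear RNA is rich in introns, and the sources used here do not say whether introns were counted.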

How the data were processed

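Quadriceps nuclei from 1 PTRF KO and 1 WT library were analysed. The authors deposited raw UMI counts for each gene and barcode. The file headers name Cell Ranger 6.0.0, and STAR, Seurat 4.1.1, mm10 and GRCm38 appear in the submitters' processing notes with no role given. The use of introns and strand in counting, barcode calling and the annotation release were not given in the sources used here. Totals of 196432 UMIs in KO and 348784 in WT IIa nuclei set the width of the intervals.

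IIx and IIb nuclei met the IIa rule with Myh1 or Myh4 in place of Myh2. UMIs were summed per class and library. Ratios carry exact conditional binomial intervals, sums exact Poisson and shares exact Clopper-Pearson intervals, at 95%. No count model was used. No doublet caller was run. The rule removes nuclei with Myh2 below 80% of the myosin UMIs or with the listed genes of other cells. It does not remove doublets of 2 IIa nuclei or all those with a small part of another isoform. Of the members, 1 KO nucleus carried both Xist and Y-linked UMIs. Thinning to 500 UMIs used seed 7. Of 53599 symbols, 52026 matched GENCODE M21 by ID.

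Named genes were past 2-fold with at least 40 UMIs, and were the 12 highest and 12 lowest (6 for IIx) when ranked by the end of the interval closer to 0. Predicted, mitochondrial, ribosomal protein, haemoglobin and sex-linked genes, Rn18s, Cavin1 and the genes of the member rule were left out of the ranking. Of the 12 lowest in KO, 1 is not reported here. Of each list the rule names the gene with the most UMIs and those with the highest and lowest ratio; other list genes were named after their values were seen. Members and lists were chosen with earlier results of these data known. Ratios and intervals were run on simulated Poisson counts drawn from the pooled IIa profile. Such counts follow the model of the intervals and lack the clumping of UMIs in single nuclei, so this checked the calculation only. Python 3.11.15, numpy 2.4.6, scipy 1.17.1 and pandas 2.3.3 were used. Alternatives changed the rule, the filters, the scaling and the nuclei used, and those on single nuclei and on Xist-marked nuclei were chosen after seeing the data.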

Additional observations from a re-analysis of the deposited data

Results flagged for a closer look

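Both Ano4 and Nav3 stood out because their knockout to WT ratios had opposite signs in IIa and IIb nuclei, with intervals beyond 0 in both; the difference between the classes was not tested, since each genotype is 1 library. Ano4 had 47 UMIs in KO IIa nuclei, 44 of them in 1 nucleus, and 0 in WT IIa nuclei, so its ratio is only bounded, at least 27.8-fold higher, and the log2 value of 7.40 is set by the 0.5 UMI added to each sum. Its log2 ratio was -1.89 (-2.51 to -1.31) in IIb nuclei. Nav3 had a log2 ratio of 3.54 in IIa nuclei and -1.80 (-2.32 to -1.30) in IIb nuclei, where its level was 8.51 CPM in KO and 29.7 CPM in WT. In Y-marked nuclei the IIa ratio of Nav3 was 2.05. Among list genes past 2-fold in IIa nuclei, Utrn (1.95 in IIa and -0.90 in IIb nuclei), Tbc1d1 (1.40 and -0.31), Smad3 (1.19 and -0.52), Fbxo32 (1.03 and -0.57) and Xirp2 (-1.03 and 0.25) also had opposite signs with intervals beyond 0 in both classes. Ratios in IIx nuclei lay on the side of IIa for these 5 genes, and the differences between classes were not tested. Over all genes with at least 20 UMIs, 32 of the 290 that were 2-fold higher in KO IIa nuclei (11%) had such opposite signs. Of the 174 that were 2-fold lower, 14 (8.05%) did.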

How the results depend on the processing

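No paired analysis was possible because each genotype has a single library. For the same reason no replicate was left out. The IIa share was 1.93 points lower in KO than in WT (-1.93), and ran from -4.15 with at least 5 myosin UMIs through -3.66 in Y-marked nuclei, -3.36 with at least 500 genes and -3.28 at a 60% isoform share to -0.955 (-2.14 to 0.297) under a wider exclusion of other cells. It reversed to 2.19 for Xist-marked KO against Y-marked WT nuclei.

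Genes 2-fold higher in KO IIa nuclei (132) numbered 2710 with no filter on counts, 290 at 20 UMIs, 34 at 100 UMIs, 73 at a 95% share, 66 in Y-marked nuclei and 11 after thinning. Those lower (60) numbered 2522, 174, 24, 36 at a 95% share and 17 after thinning. For IIa over IIb the higher genes (356) numbered 3652 with no filter, 550 at 20 UMIs, 197 at 100 UMIs and 76 after thinning, and the lower ones (365) 102 after thinning. For IIa over IIx the higher genes (21) numbered 472, 38, 9, 13 at a 95% share, 11 with the wider exclusion and 0 after thinning. Those lower (13) numbered 298, 24, 7, 3 after thinning and 8 with each nucleus weighted equally. Thinning and stricter rules leave fewer genes with enough UMIs. After thinning 241 remained for KO over WT, and the lower genes (17) then outnumbered the higher ones (11).

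Among named genes, Myoz2 of IIa over IIx reversed to -0.22 after thinning. Without the top nucleus in each library Erbb4 was at -4.21, a setting added after the data were seen. Scaling by the median of ratios turned the list medians of the atrophy genes (-0.05), the clock (-0.11) and respiration (-0.14) below 0. The 102 KO nuclei limit every KO ratio.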
